A study of Ovis aries with 15 samples.

Results

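The 9 genes described here, CDKN1A, MDM2, CCNG1, PHLDA3, SESN1, SESN2, GADD45A, GADD45B and BBC3, are transcriptional targets of p53 or partners of its response to DNA damage. They were chosen by gene symbol from the 25592 genes of the expression table, and all 9 had a row. The kidney of male Dorper and Small-tailed Han crossbred sheep was profiled by poly(A) RNA sequencing at 4 months of age, after a feeding period of 21 days. CON sheep ate a total mixed ration alone. In the AFB1 group each kg of dry matter held 500 µg of aflatoxin B1, and in the AFB1_CUR group each kg held 800 mg of curcumin besides that dose. Each group had 5 libraries, and no group received curcumin alone, so an effect of curcumin can only be read on top of aflatoxin B1. The labels give the group but not the animal behind each library, so the p-values measure the spread between these libraries.

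Aflatoxin B1 is a mould toxin that cytochrome P450 enzymes convert to an epoxide, which binds covalently to guanine in DNA. Damaged DNA activates the kinases ATM and ATR, which release p53 from its inhibitor MDM2, and p53 then switches on genes for cell cycle arrest, repair, metabolic braking and cell death. MDM2 is itself a p53 target and closes the loop. CDKN1A, CCNG1, PHLDA3 and BBC3 act in arrest and survival, the sestrins restrain growth signalling under stress, and the GADD45 proteins are stress sensors that also respond to signals other than p53. The comparison of the AFB1 and CON groups asks whether this set of transcripts differed in the kidney after aflatoxin B1 in the diet.

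The library labelled AFB1 replicate 1 did not carry the markers of kidney. The mean log2(FPKM + 1) of 20 hepatocyte markers was 10.61 in it and 1.95 to 3.12 in the other 14 libraries, and 20 of these 20 genes were above every other library. The 8 measured proximal tubule markers and the 9 markers of the loop and collecting duct were all below every other library, with UMOD at 0.11 FPKM and LRP2 at 0.01 FPKM. The values below therefore come from the other 14 libraries (5 CON, 4 AFB1 and 5 AFB1_CUR), and AFB1 replicate 1 is given apart. A pair of libraries, AFB1 replicate 2 and AFB1_CUR replicate 2, had a mean log2 level of immune cell markers of 4.60 and 5.52, against 1.26 to 2.69 in the other 12, and results that move with them are given without them too. Total counts per library lay between 50255295 and 68747047. In whole tissue, fewer cells of a type and less RNA per cell cannot be told apart.

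On the FPKM scale, which corrects for transcript length, GADD45A had the highest mean level of the 9 genes over the 14 libraries, 92.7 ± 21.1 FPKM (SD, n = 14), followed by CCNG1 at 66.2 ± 7.24 FPKM and PHLDA3 at 31.0 ± 3.11 FPKM. SESN2 (12.2 FPKM) was above SESN1 (10.1 FPKM) in 10 of 14 libraries, and GADD45B (6.05 FPKM) above MDM2 (6.04 FPKM) in 8 of 14, so neither order held in every library. CDKN1A had a mean of 5.12 FPKM and BBC3 of 0.615 FPKM. BBC3 reached 1 FPKM in 1 of the 14 libraries and so missed the minimum of 1 FPKM in at least 5 libraries. It had 142 to 465 reads per library, and its fold changes below come from a fit with no such minimum. CDKN1A and GADD45B varied most between libraries of the same group, with a within-group SD of log2(FPKM + 1) of 0.64 and 0.61, at the 94.4th and 93.5th percentile of the tested genes, whose median was 0.24. CCNG1 and PHLDA3 were steady, at 0.16 each.

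Between the AFB1 and CON groups, 0 of the 8 tested genes met the screening conditions of an unadjusted p under 0.05 with a fold change above 1.5, and 0 had an adjusted p under 0.05 (edgeR's quasi-likelihood test, Benjamini-Hochberg adjustment over 13162 genes). Among all tested genes 1.76% met the screening conditions and 0 passed after adjustment. DESeq2 on the same counts gave 17 adjusted calls among all genes and 0 among these. At an unadjusted p under 0.05, 1 of the 8 genes, GADD45A, was higher in AFB1, where 5.04% of all tested genes lay under that p. The estimates were split evenly, 4 above 0 and 4 below, and the median log2 fold change of the 8 genes was 0.03 beside 0.02 over all tested genes. The plot of FPKM by library shows how far the groups overlapped.

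**Figure D1:**
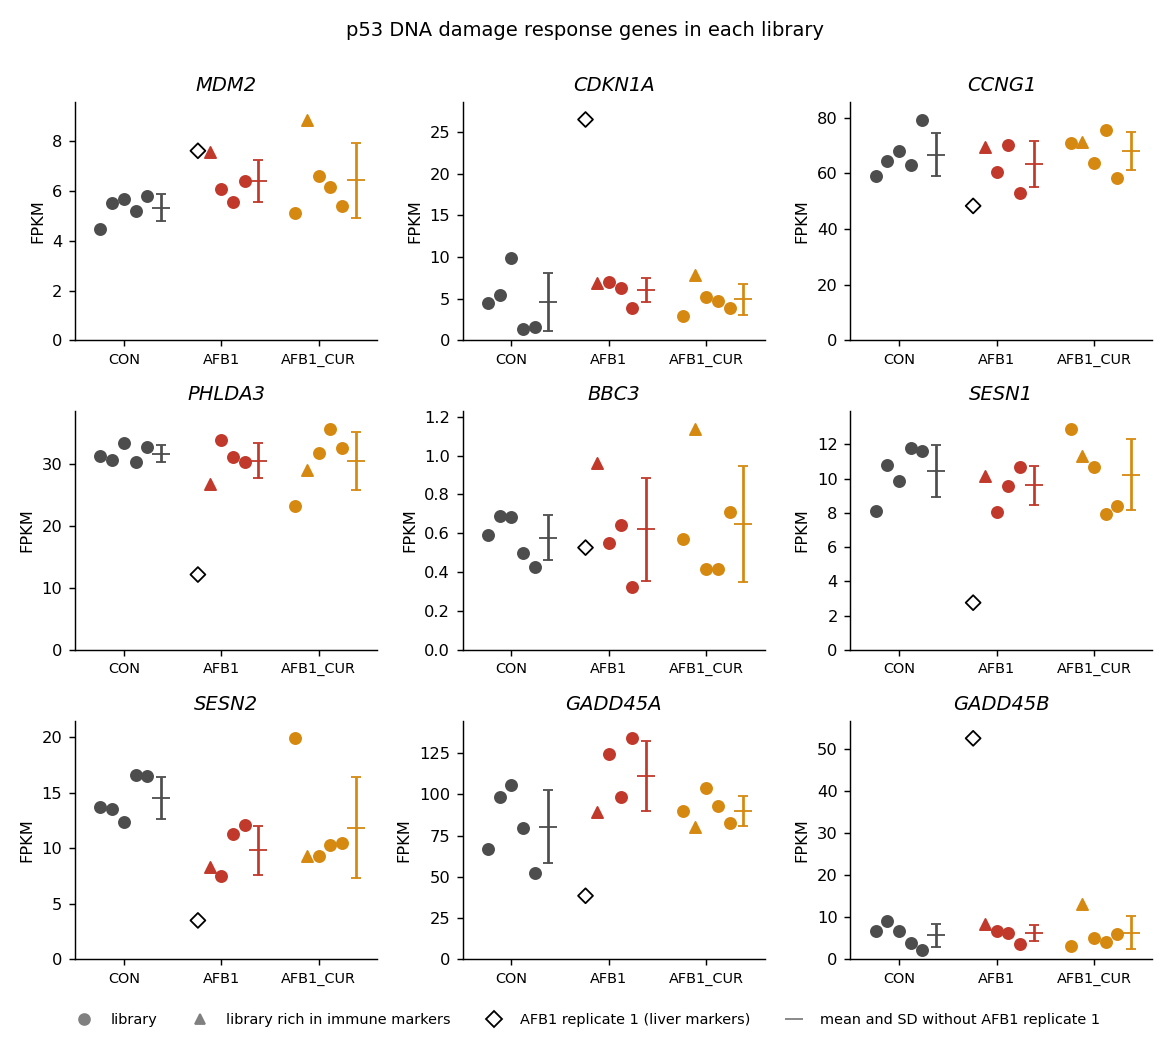
FPKM (vertical axis, linear, from 0) of each of the 9 genes in each library of the CON, AFB1 and AFB1_CUR groups. Bars give the mean and SD without AFB1 replicate 1 (open diamond), and triangles mark the 2 libraries rich in immune markers; SESN2 is the 1 gene whose 4 filled AFB1 points all lie below the 5 CON points.

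MDM2, the ubiquitin ligase that degrades p53 and lies on chromosome 3 (151162002 to 151188568, minus strand), had FPKM of 4.47, 5.53, 5.69, 5.19 and 5.82 in CON replicates 1 to 5. It had 7.56, 6.10, 5.58 and 6.42 in AFB1 replicates 2 to 5, and 5.12, 8.88, 6.59, 6.17 and 5.39 in AFB1_CUR replicates 1 to 5. Of the 4 AFB1 libraries, 3 were above every CON library and the other lay among them. The log2 fold change of AFB1 over CON was 0.26 ± 0.13 (SE), or 1.20-fold with a 95% interval of 0.987 to 1.45, and did not pass the test (adjusted p = 0.957, edgeR). MDM4, the second inhibitor of p53, had a log2 fold change of -0.09 ± 0.18 (SE, adjusted p = 0.975).

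CDKN1A encodes p21, the cyclin-dependent kinase inhibitor through which p53 stops the cell cycle, and lies on chromosome 20 (10676464 to 10684891, plus strand). Its FPKM in CON replicates 1 to 5 were 4.53, 5.48, 9.88, 1.43 and 1.58, a 6.93-fold range among untreated libraries. The AFB1 libraries had 6.91, 7.04, 6.33 and 3.89, and the AFB1_CUR libraries 2.95, 7.90, 5.19, 4.73 and 3.83. All AFB1 values lay inside the CON range, and the log2 fold change of 0.39 ± 0.45 (SE) did not pass the test (adjusted p = 0.965), with an interval on the fold of 0.666 to 2.58 that holds both a fall and a rise of 1.5-fold. The estimates moved with single CON libraries, in both directions. Without CON replicate 3, the highest, CDKN1A met the screening conditions in AFB1 at a log2 fold change of 0.89 (adjusted p = 0.949). Without CON replicate 4 or 5, the lowest, its estimate over all AFB1-fed libraries turned negative, to -0.020 and -0.013. In AFB1_CUR over CON it went to -0.21 and -0.20. CCNG1, a cyclin that p53 induces and that feeds back on MDM2, lies on chromosome 5 (72690993 to 72698237, plus strand). Its level was 66.8 ± 7.77 FPKM in CON (SD), 63.3 ± 8.21 FPKM in AFB1 and 67.9 ± 6.83 FPKM in AFB1_CUR. Its interval in AFB1 over CON, 0.784 to 1.13-fold, excluded changes of 1.5-fold in either direction.

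PHLDA3 encodes an inhibitor of the survival kinase AKT and lies on chromosome 12 (80260638 to 80266906, plus strand). It held within 30.4 to 33.4 FPKM in CON, 26.9 to 33.9 in AFB1 and 23.2 to 35.8 in AFB1_CUR. The fold of AFB1 over CON was 0.964, with an interval of 0.790 to 1.18. BBC3, which encodes the death-promoting BCL2 family protein PUMA, lies on chromosome 14 (54000221 to 54014110, minus strand). Its CON libraries had 0.426 to 0.689 FPKM, its AFB1 libraries 0.325 to 0.964 and its AFB1_CUR libraries 0.414 to 1.14. The log2 fold change in AFB1 was 0.07 ± 0.29 (SE, adjusted p = 1), and the interval of 0.678 to 1.62-fold holds a rise of 1.5-fold but not a fall of that size. The highest AFB1 value was that of AFB1 replicate 2, an immune-rich library, and BBC3 was not fitted without it.

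The sestrins activate AMPK and restrain mTORC1. SESN1, on chromosome 8 (28370213 to 28482574, plus strand), had 10.4 ± 1.52 FPKM in CON and 9.61 ± 1.14 in AFB1 (SD), with a fold of 0.923 (interval 0.719 to 1.18). SESN2, on chromosome 2 (238843019 to 238860902, minus strand), is induced by p53 and also by the ATF4 arm of the stress response. In CON its FPKM were 13.7, 13.5, 12.3, 16.6 and 16.5, and in AFB1 they were 8.30, 7.52, 11.3 and 12.1. The groups did not overlap, all AFB1 values being the lower ones, which was so for 1.03% of all tested genes. The difference between SESN1 and SESN2 was not tested. In AFB1_CUR the values were 19.9, 9.27, 9.31, 10.3 and 10.5, so 8 of the 9 libraries of the aflatoxin B1 groups were below every CON library and AFB1_CUR replicate 1 was above every other library.

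The fold of SESN2 in AFB1 over CON was 0.681 (interval 0.460 to 1.01), a log2 change of -0.56 ± 0.26 (SE), which did not pass the test (adjusted p = 0.957). The call turned on single libraries and settings. It met the screening conditions in AFB1 without AFB1 replicate 5 (-0.73, adjusted p = 0.722) and with sample quality weights in limma (-0.63, adjusted p = 0.609). Over all AFB1-fed libraries the log2 difference from CON was -0.45 ± 0.21 (SE, adjusted p = 0.764), and without AFB1_CUR replicate 1 it was -0.60 (adjusted p = 0.599), which met the screening conditions. Without both immune-rich libraries, where SESN2 ranked 13 and 12 of 14, the estimate was -0.44 ± 0.27 (SE, adjusted p = 0.895) in AFB1 and -0.33 ± 0.22 (SE, adjusted p = 0.917) over all AFB1-fed libraries. In AFB1 over CON, 7 of the 8 proximal tubule markers had estimates below 0 (median -0.33) and 7 of the 7 tested immune markers above 0 (median 0.83, with JCHAIN meeting the screening conditions). Without the immune-rich pair those medians were -0.16 and 0.23. Across libraries SESN2 had r = 0.657 with the tubule markers (adjusted p = 0.0525, permutation test). With the immune markers, over the 12 libraries that were not immune-rich, it had r = -0.462 (adjusted p = 0.324, permutation test). The part of these cell types in the SESN2 difference between AFB1 and CON was not tested. Under 0 settings was the adjusted p of SESN2 under 0.05.

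GADD45A, on chromosome 1 (43324851 to 43327977, plus strand), encodes a stress sensor that binds PCNA and p21 and activates the p38 and JNK pathways. Its CON libraries had 66.9, 98.1, 106, 79.4 and 52.2 FPKM and its AFB1 libraries 89.0, 124, 98.3 and 134. The AFB1_CUR libraries had 90.0, 80.5, 104, 92.9 and 82.9 FPKM, all within the CON range. AFB1 replicates 3 and 5 were above every CON library, and the others were not. GADD45A was 1.40-fold higher in AFB1 than in CON, on the log2 scale 0.48 ± 0.21 (SE, interval 0.04 to 0.92), at an unadjusted p under 0.05 but under the 1.5-fold condition (adjusted p = 0.957). It met both conditions without CON replicate 3 (0.60), without AFB1 replicate 2 (0.61) and without both immune-rich libraries (0.62), with adjusted p values of 0.949, 0.999 and 0.821. Those are removals that raised the estimate. CON replicate 5 held the lowest CON value, and without it the GADD45A estimate in AFB1_CUR over CON went to -0.016.

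GADD45B, on chromosome 5 (18910008 to 18912137, minus strand), is the family member best known for induction by TGF-beta and NF-kB. Its FPKM were 6.67, 8.996, 6.79, 3.74 and 2.21 in CON, 8.26, 6.76, 6.31 and 3.50 in AFB1 and 3.16, 13.1, 5.09, 4.18 and 5.98 in AFB1_CUR. The AFB1 values lay inside the CON range, and the log2 fold change was 0.11 ± 0.40 (SE, adjusted p = 0.983). Its sign turned without AFB1 replicate 2 (-0.01) or without CON replicate 5 (-0.09). Of the GADD45 genes, GADD45B had the wider SE for AFB1, and the difference between their estimates was not tested.

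The AFB1 group looked different when AFB1 replicate 1 entered the fit. That library had 26.5 FPKM of CDKN1A, 5.34-fold the median of the other 14, and 52.4 FPKM of GADD45B, 8.53-fold the median, both above every other library. It had 48.3 FPKM of CCNG1, 12.2 of PHLDA3, 2.75 of SESN1, 3.49 of SESN2 and 38.5 of GADD45A, all below every other library. MDM2 (7.62 FPKM) and BBC3 (0.526 FPKM) lay within the range of the others. With it, 3 of 8 genes met the screening conditions between AFB1 and CON, where 4.84% of all genes did: CDKN1A at a log2 fold change of 1.56, GADD45B at 1.96 and SESN2 at -0.68. The adjusted p values were 0.599, 0.596 and 0.596. The plot of fold changes sets the 14-library and 15-library estimates side by side. The higher CDKN1A and GADD45B rested on the library with the liver markers, and the part of tissue in them was not tested.

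**Figure D2:**
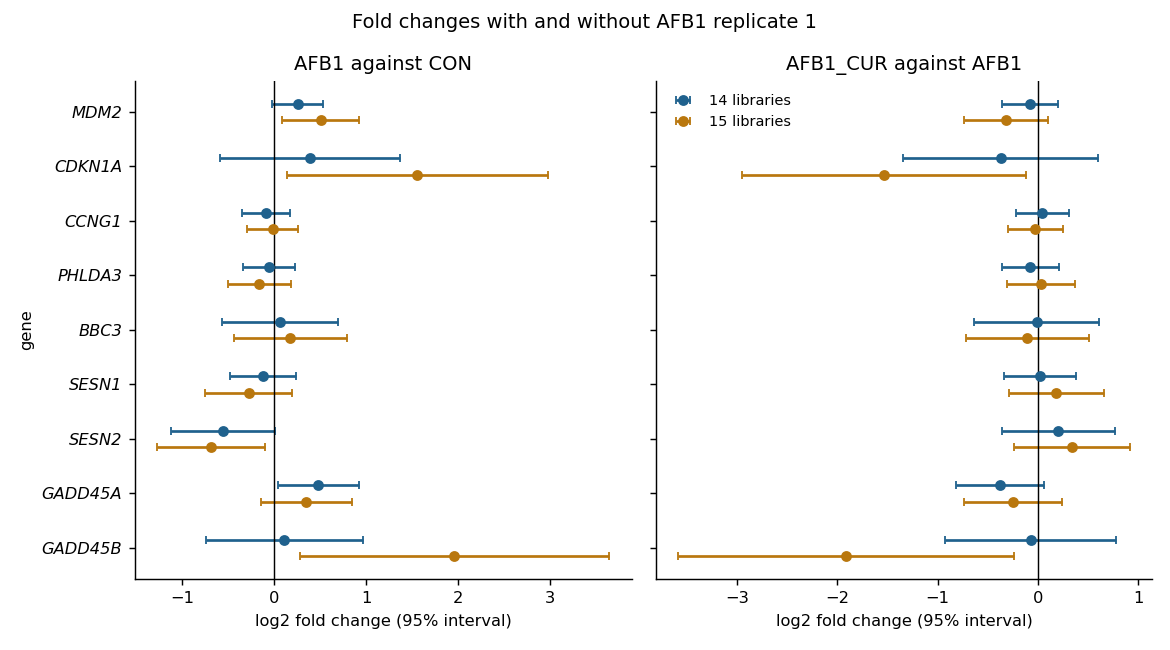
Log2 fold change (horizontal axis, with 95% interval) of each gene for AFB1 against CON and AFB1_CUR against AFB1, in fits with 14 libraries (without AFB1 replicate 1) and with all 15; BBC3 comes from fits with no minimum on FPKM. In the 15-library fit CDKN1A moved from 0.39 to 1.56 and GADD45B from 0.11 to 1.96 in AFB1.

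The comparison of AFB1_CUR with AFB1 asks whether curcumin in the ration altered the levels under aflatoxin B1. Of the 8 tested genes 0 met the screening conditions, against 0.935% of all tested genes, and 0 passed after adjustment (edgeR), with 0 at an unadjusted p under 0.05 among these genes and 303 (2.3%) among all. DESeq2 gave 0 adjusted calls among these genes and 3 among all. GADD45A had the smallest p, with a log2 fold change of -0.38 ± 0.21 (SE, adjusted p = 0.99999) and an interval on the fold of 0.566 to 1.04. For MDM2 the interval was 0.783 to 1.15-fold, for CCNG1 0.857 to 1.24-fold, for PHLDA3 0.779 to 1.16-fold and for SESN1 0.790 to 1.30-fold, all inside 1.5-fold. For CDKN1A (0.393 to 1.52-fold) and GADD45B (0.526 to 1.72-fold) a change of 1.5-fold could not be told from none. SESN2 was at 0.21 ± 0.26 (SE, adjusted p = 0.99999), with an interval of 0.781 to 1.70-fold, and its estimate turned sign among the fits without single libraries, from -0.10 to 0.38. With AFB1 replicate 1 in the AFB1 group, 2 genes met the conditions, where 3.98% of all genes did: CDKN1A at -1.53 and GADD45B at -1.91 were lower in AFB1_CUR (adjusted p = 0.785 for both).

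Between AFB1_CUR and CON, 0 of the 8 genes met the screening conditions, beside 1.63% of all genes, and the median log2 fold change was -0.01. MDM2 had an estimate of 0.18 ± 0.12 (SE, adjusted p = 0.829) and SESN2 of -0.35 ± 0.25 (SE, adjusted p = 0.834). Without the immune-rich pair these were at 0.10 and -0.23. SESN2 met the conditions when AFB1_CUR replicate 1, its high library, was left out (-0.65, adjusted p = 0.820). Over the 9 libraries of both aflatoxin B1 groups, 0 of the 8 genes met the conditions against CON, beside 1.41% of all genes. The AFB1 and AFB1_CUR comparisons with CON share the 5 CON libraries and are not independent of each other.

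Some of these genes were highest and others low in the immune-rich libraries. MDM2 and BBC3 had their highest FPKM of the 14 libraries in AFB1_CUR replicate 2 and the second highest in AFB1 replicate 2. BBC3 was at 1.14 and 0.964 FPKM there against 0.325 to 0.711 in the other 12, and MDM2 at 8.88 and 7.56 against 4.47 to 6.59. GADD45B ranked 1 and 3 of 14 there. SESN2 (9.27 and 8.30 FPKM) and PHLDA3 (29.1 and 26.9 FPKM) went the other way, ranking 12 and 13 of 14. The immune markers were high in both libraries, which come from different groups, and their part in these levels was not tested.

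Across the 14 libraries, CDKN1A and GADD45B moved against the markers of the proximal tubule, the segment that makes up most of the renal cortex. The correlation of log2(FPKM + 1) with the mean of the 8 tubule markers was r = -0.849 for GADD45B (rho = -0.855, permutation p = 0.00019, adjusted p = 0.00312) and r = -0.815 for CDKN1A (rho = -0.846, permutation p = 0.00026, adjusted p = 0.00312). Without the 2 libraries farthest from the median marker level, r was -0.896 and -0.793. With the immune markers, over the 12 libraries that were not immune-rich, r was 0.858 for GADD45B (rho = 0.741, permutation p = 0.00022, adjusted p = 0.00312) and 0.725 for CDKN1A (rho = 0.524, permutation p = 0.00795, adjusted p = 0.0477). Leaving out 2 further libraries gave 0.748 and 0.663. Of the 36 relations computed between the 9 genes and 4 marker lists, 6 had an adjusted p under 0.05 by Pearson's r, and 2, those with the tubule markers, also by rank. The p-values printed here are those of r. By rank, the relations with immune markers had adjusted p values of 0.0749 for GADD45B and 0.256 for CDKN1A (permutation tests). The others of the 6 were those of GADD45B (r = 0.782, rho = 0.719, permutation p = 0.00117) and BBC3 (r = 0.746, rho = 0.626, permutation p = 0.00237) with endothelial and stromal markers, at adjusted p values of 0.0105 and 0.0171 (0.0590 and 0.0855 by rank). The relation of BBC3 fell to r = 0.389 without AFB1_CUR replicate 2 and AFB1 replicate 5 and so rested on those libraries. SESN2 had the opposite sign to CDKN1A with the tubule markers, r = 0.657 (rho = 0.631, permutation p = 0.0117), and missed the adjusted threshold (adjusted p = 0.0525). BBC3 had the same sign as CDKN1A with them, r = -0.653 (rho = -0.635, permutation p = 0.0104), and missed it too (adjusted p = 0.0525). Libraries with lower tubule markers thus tended to have more CDKN1A and GADD45B transcript. With the group means removed and libraries permuted within their group, r with the tubule markers was -0.863 for GADD45B and -0.792 for CDKN1A (adjusted p = 0.0063 for both, permutation test). With the immune markers it was 0.958 for GADD45B (adjusted p = 0.0063) and 0.766 for CDKN1A (adjusted p = 0.135), so the relation of CDKN1A with the immune markers did not pass within groups. Of the 36 relations, 7 passed within groups. The others were GADD45B (r = 0.886), BBC3 (0.798) and CDKN1A (0.584) with endothelial and stromal markers, and BBC3 with immune markers (0.725). Their adjusted p values were 0.00036, 0.0449, 0.0442 and 0.0343 (permutation test).

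**Figure D3:**
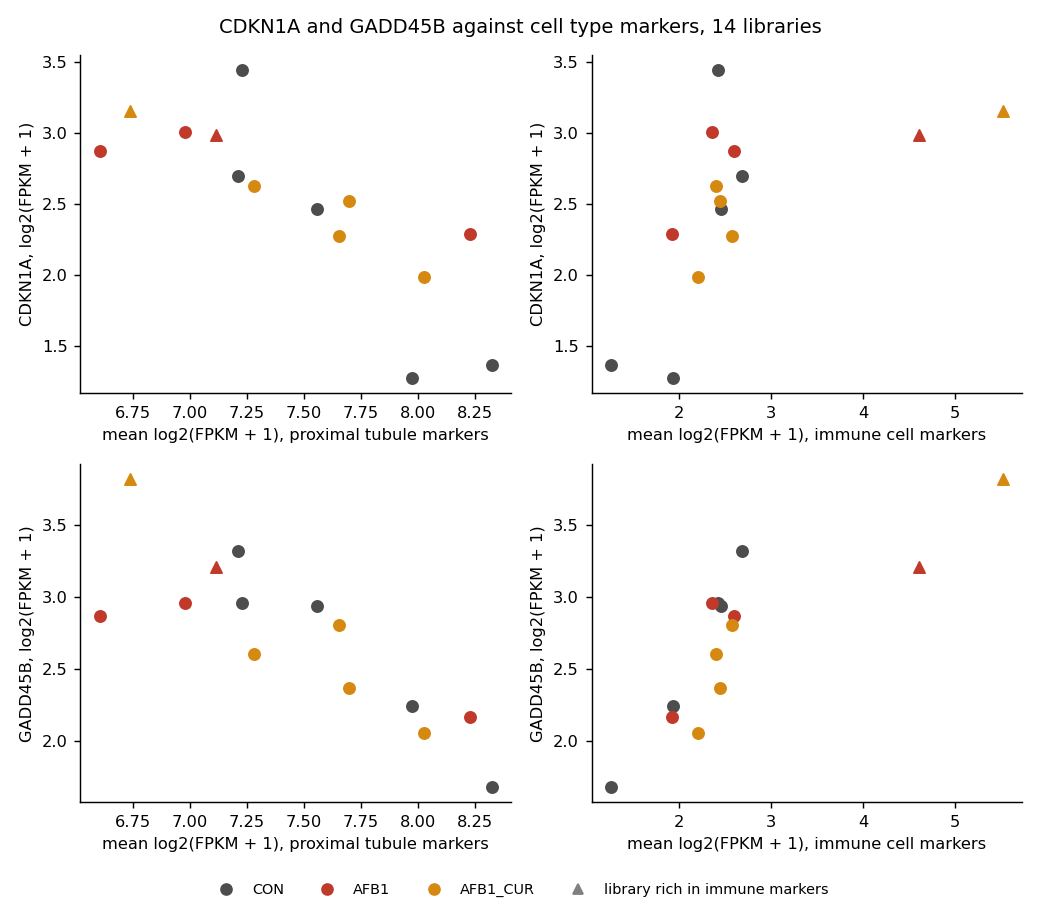
CDKN1A (top) and GADD45B (bottom) in log2(FPKM + 1) against the mean log2(FPKM + 1) of proximal tubule markers (left) and immune cell markers (right) in 14 libraries. Triangles mark AFB1 replicate 2 and AFB1_CUR replicate 2; CDKN1A and GADD45B fall from left to right with the tubule markers, at r = -0.815 and -0.849.

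Among the 9 genes themselves, 2 of 36 pairs were correlated at an adjusted p under 0.05, each of them with GADD45B. GADD45B and BBC3 had r = 0.820 (rho = 0.767, permutation p = 0.0003, adjusted p = 0.0108), and CDKN1A and GADD45B had r = 0.786 (rho = 0.833, permutation p = 0.00072, adjusted p = 0.0130). Both held with the group means removed. Without AFB1 replicate 2 and AFB1_CUR replicate 2 they were at r = 0.694 and 0.764, with adjusted p values of 0.0912 and 0.0610, so 0 pairs passed. Without the 2 libraries farthest from the median they were at 0.725 and 0.707. CDKN1A and MDM2, which p53 induces together, had r = 0.435 (rho = 0.512, permutation p = 0.118, adjusted p = 0.304). SESN2 tended to run against CDKN1A (r = -0.695, rho = -0.670, permutation p = 0.0055, adjusted p = 0.0588). Most pairs of the 9 transcripts thus did not pass.

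The tested genes most like each of the 9 over the 14 libraries, by Pearson's r of log2(FPKM + 1), are given as a description. CDKN1A was most like DDIT4, an mTORC1 inhibitor induced by DNA damage, other stresses and glucocorticoids (r = 0.932), then C12H1orf21 (0.917) and RGCC (0.913). BBC3 was most like DPEP3 (0.972) and the proliferation genes HMGB2 (0.965) and MCM4 (0.956), both of which also had their highest level in the immune-rich libraries. GADD45B was most like SEMA4F (0.969), ATG16L2 (0.968) and RHOG (0.965). MDM2 ran with PAK2 (0.904), GNA13 (0.899) and CAPRIN1 (0.894), and SESN2 with LOC132660088 (0.925), PRSS36 (0.880) and LOC121817501 (0.863). The likest genes of GADD45A were LOC114115721 (0.834), LOC121817391 (0.829) and ATP6V0A4 (0.821), the last a proton pump subunit of the collecting duct. Those of CCNG1 were DGKE (0.841), ITSN2 (0.808) and GGTA1 (0.804), those of PHLDA3 were GORASP1 (0.883), RNF10 (0.876) and TPRN (0.858), and those of SESN1 were KRIT1 (0.868), GRAMD1C (0.826) and LOC114109802 (0.821).

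The rest of the pathway was read from lists. Of 29 other tested p53 targets, 1 met the screening conditions in AFB1 over CON, beside 1.76% of all genes. It was AEN, an exonuclease of apoptotic cells, at a log2 fold change of 0.59 ± 0.22 (SE, adjusted p = 0.957), and its estimate lay between 0.48 and 0.68 when single libraries were left out, 5 of which took it under one of the conditions. Without the immune-rich pair it was at 0.57 ± 0.23 (SE, adjusted p = 0.839), or 1.48-fold, just under the fold condition. The list had 19 estimates above 0 and a median of 0.09, beside 53.4% of estimates above 0 and a median of 0.02 over all tested genes. Without the immune-rich pair the median was 0.05, with 17 of 27 estimates above 0. APAF1, the scaffold of the apoptosome, met the conditions in AFB1_CUR over CON (0.67 ± 0.25 SE, adjusted p = 0.823) and over all AFB1-fed libraries (0.60 ± 0.23 SE, adjusted p = 0.764), comparisons in which 1.63% and 1.41% of all genes did. Its highest values, 2.67 and 2.23 FPKM, were in the immune-rich libraries, and without both of them it had 0.47 in AFB1_CUR over CON (adjusted p = 0.990) and 0.36 over all AFB1-fed libraries (adjusted p = 0.917), under the fold condition. Over all AFB1-fed libraries its call was also lost without CON replicate 1, 4 or 5. Without that pair 0 of 27 tested p53 targets met the conditions in any comparison, AEN and APAF1 missing the fold.

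Of 12 tested p53 regulators and damage kinases 0 met the conditions in any of the 4 comparisons. In AFB1 over CON the smallest p was that of PPM1D, the phosphatase that switches p53 off and is itself a target (0.30 ± 0.15 SE, adjusted p = 0.957). Over all AFB1-fed libraries it was at 0.30 ± 0.13 (SE, adjusted p = 0.764), 1.23-fold, at an unadjusted p under 0.05 but under the fold condition. Without the immune-rich pair it was at 0.22 (adjusted p = 0.917) and no longer under that p. Of 20 nucleotide excision repair genes, the pathway that removes bulky adducts, 0 met the conditions, with the smallest p for UVSSA (0.31 ± 0.13 SE) and GTF2H1 (0.24 ± 0.11 SE), both at adjusted p = 0.957. UVSSA was 0.36 lower on the log2 scale in AFB1_CUR than in AFB1 (adjusted p = 0.99999), also under the fold condition. The 17 tested cell cycle genes that p21 represses all had estimates above 0 in AFB1 over CON, with a median of 0.52 and 0 meeting the conditions. RRM2 (1.18 ± 0.80 SE) and MKI67 (1.03 ± 0.85 SE), both at adjusted p = 0.965, were at 6.43 and 8.15 FPKM in AFB1 replicate 2 and at no more than 1.02 and 1.64 FPKM in the 3 other AFB1 libraries. Without the immune-rich libraries the median of the list was -0.11, with 2 of 14 tested genes above 0, so the direction turned.

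Larger differences lay outside the p53 targets, among transcripts that respond to stimulation within minutes. This list was chosen with earlier results of these data known, so its counts are given as a description. Of 12 tested immediate early genes, 4 met the conditions and were lower in AFB1 than in CON, where 1.11% of all genes were called lower. CCN1 was at -2.10 ± 0.45 (SE, adjusted p = 0.607). EGR1 at -2.10 ± 0.60 (SE), FOS at -2.18 ± 0.75 (SE) and NR4A1 at -1.76 ± 0.56 (SE) each had adjusted p = 0.957. In CON, FOS had 8.93, 23.4, 56.1, 6.05 and 6.36 FPKM, and in AFB1 it had 6.22, 4.14, 4.37 and 3.22. CCN1 had 36.8, 44.0, 58.2, 14.4 and 17.1 FPKM in CON and 11.7, 7.23, 6.39 and 6.63 in AFB1, with no overlap. CON replicate 3, which held the highest CDKN1A of the 14 kidney libraries, also held the highest FOS, EGR1, NR4A1, CCN1, ATF3 and DDIT4. Without it FOS was at -1.30 ± 0.61 (SE, adjusted p = 0.949) and no longer met the conditions. CCN1 (-1.81), EGR1 (-1.60) and NR4A1 (-0.89) were closer to 0 without it and still met them, as they did whichever other library was left out. In AFB1_CUR over CON, where 0.577% of all genes were called lower, 3 of the 12 genes met the conditions: CCN1 (-1.24 ± 0.40 SE), EGR1 (-1.27 ± 0.54 SE) and NR4A1 (-1.34 ± 0.52 SE), each at adjusted p = 0.823. FOS was at -1.32 ± 0.67 (SE) there and did not. Without CON replicate 3 they were at -0.95 for CCN1, which still met the conditions, and at -0.77 for EGR1 and -0.48 for NR4A1, which did not. EGR1 also missed them without CON replicate 2 or AFB1_CUR replicate 3, 4 or 5. Without the immune-rich pair the count rose to 6 of 12, with FOS at -2.03, JUN at -0.59 and JUNB at -0.65 added, and the median of the list moved from -0.31 to -0.62. Over all tested genes the calls in either direction went from 214 to 115. Over all AFB1-fed libraries the same 4 genes as in AFB1 met them, beside 0.669% of all genes called lower, and between AFB1_CUR and AFB1 0 of the 12 did. With all AFB1-fed libraries together, FOS went from -1.75 to -0.87 without CON replicate 3 and was no longer called, and NR4A1 from -1.55 to -0.69.

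Of 10 tested genes of the integrated stress response, 1 met the conditions in AFB1 over CON, beside 1.76% of all genes. ATF3 was lower in AFB1 than in CON (-0.81 ± 0.29 SE, adjusted p = 0.957), a call lost without CON replicate 3, where it was at -0.44. It was also lower in AFB1_CUR than in CON (-0.72 ± 0.27 SE, adjusted p = 0.823), and at -0.35 and not called without that library. PPP1R15A had -0.38 ± 0.11 (SE, adjusted p = 0.957), under the fold condition. NUPR1 was higher in AFB1_CUR than in CON (1.04 ± 0.44 SE, adjusted p = 0.823) and in all AFB1-fed libraries than in CON (0.94 ± 0.40 SE, adjusted p = 0.764). The call in AFB1_CUR was lost without the immune-rich pair (0.45, adjusted p = 0.990), without AFB1_CUR replicate 2 alone (0.44) and without CON replicate 1, 4 or 5. The call in all AFB1-fed libraries was lost without the pair (0.48, adjusted p = 0.917), without AFB1 replicate 2 alone (0.77) and without the same CON libraries. ATF3 is a gene that p53 can induce, and here it was called in the same direction as the immediate early genes. The plot of gene lists shows the 8 p53 response genes centred on 0 beside these lists.

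**Figure D4:**
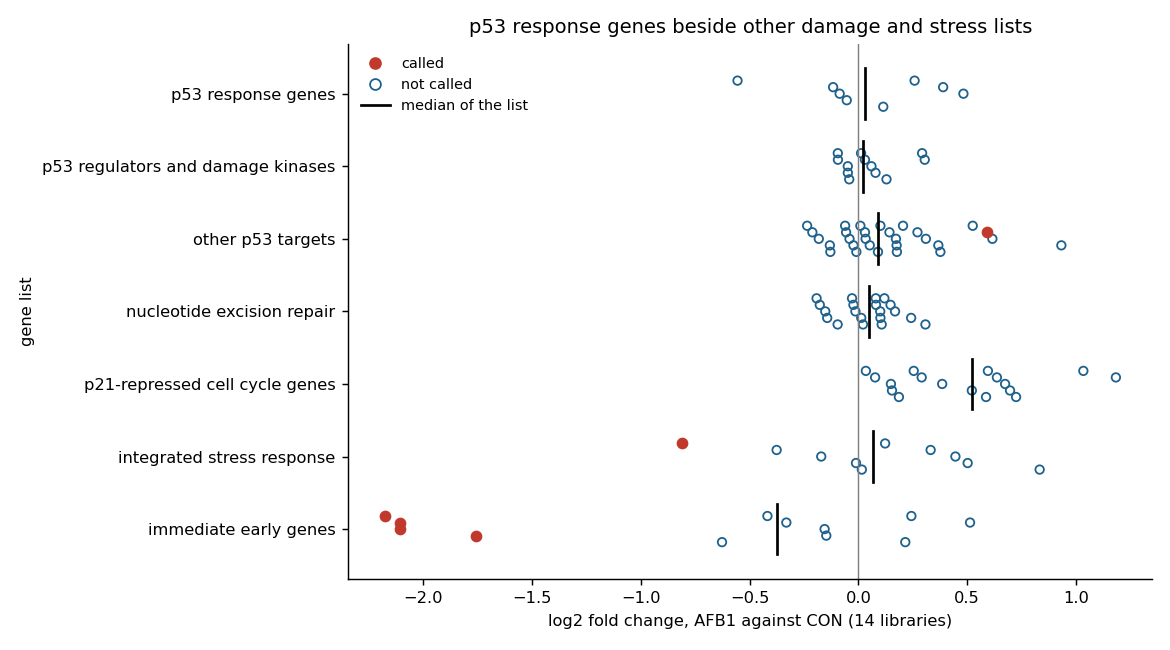
Log2 fold change of AFB1 against CON (horizontal axis, 14 libraries) for the tested genes of each list, 1 point per gene, with the median of the list as a black bar; filled red points met the screening conditions. The p53 response genes have a median of 0.03 and 0 filled points, and the 4 filled immediate early genes lie between -2.18 and -1.76.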

How the data were processed

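The authors trimmed reads with cutadapt (1.9), aligned them with HISAT2 (2.2.1) and used StringTie (2.1.6), and the submitters' processing notes also name DESeq2 and edgeR. The deposited table gives a raw read count and a FPKM value per gene and library, and both were used as deposited by the authors. The file's coordinates of these genes equal those of RefSeq for ARS-UI_Ramb_v3.0, and the authors' build, counting tool and strand setting were not given in the sources used here. Groups came from the sample titles, since the treatment field numbers aflatoxin upward within a group.

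Counts of 14 libraries were fitted in 1 model with edgeR 4.0.16 (TMM, quasi-likelihood test, R 4.3.3) for the 13162 genes with at least 1 FPKM in at least 5 libraries, and p-values were adjusted by Benjamini-Hochberg over all of them. The screening conditions, an unadjusted p under 0.05 and a fold above 1.5, follow the study's methods. Intervals are at 95%. Correlations used two-sided permutation tests, adjusted over 36 relations. DESeq2 1.42.0, limma 3.58.1, other filters, pseudocounts and left-out libraries were alternatives. The scripts were tested on simulated data. The 9 genes, the gene lists and the rules for named genes (all 9, MDM4, 1 gene not reported here, list genes called in any comparison or with the 2 smallest p in AFB1 against CON, and the 3 likest genes of each) were chosen with earlier results of these data known. The removal of both immune-rich libraries, 2 further combinations with all 15 libraries and the marker relations within groups were added after seeing the data.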

Additional observations from a re-analysis of the deposited data

Results flagged for a closer look

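In groups of 4 or 5 libraries a value was marked when its gap to the nearest other, divided by the range of the group, passed Dixon's 95% limit for that number of libraries. Of 36 groups examined over the 9 genes, 4 were marked. Chance marks about 1 in 20, but the AFB1 group entered both with and without AFB1 replicate 1, a library already known to differ. The count cannot be read against that rate. With AFB1 replicate 1 counted in the AFB1 group, it was marked for CDKN1A (26.5 FPKM, the highest), PHLDA3 (12.2 FPKM, the lowest) and SESN1 (2.75 FPKM, the lowest). The fourth was SESN2 in AFB1_CUR replicate 1, at 19.9 FPKM against 9.27 to 10.5 FPKM in the other 4 libraries of the group.

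AFB1 replicate 1, which was left out of the comparisons, exceeded every CON library in CDKN1A (26.5 FPKM, CON 1.43 to 9.88), MDM2 (7.62 FPKM, CON 4.47 to 5.82) and GADD45B (52.4 FPKM, CON 2.21 to 8.996). That library carries the hepatocyte markers and lacks the kidney markers, and with 1 library the tissue and the treatment cannot be told apart.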

How the results depend on the processing

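The counts of genes meeting the screening conditions, 0 of 8 in each comparison, were the same with DESeq2's size factors, with DESeq2's test, with no minimum on FPKM, with limma on log2(FPKM + 1) or log2(FPKM + 0.1) and with only the compared groups in the fit. With all 15 libraries, 3 genes met them between AFB1 and CON and 2 between AFB1_CUR and AFB1, and the same numbers, 3 and 2, came without the minimum. Limma on log2(FPKM + 1) with all 15 libraries gave 1 for AFB1 and CON, as did limma's sample quality weights (SESN2 in both) and the removal of both immune-rich libraries (1, GADD45A). Leaving out single libraries gave 0 to 2 for AFB1 and CON, with CDKN1A and GADD45A met without CON replicate 3, GADD45A without AFB1 replicate 2 and SESN2 without AFB1 replicate 5. It gave 0 to 1 for AFB1_CUR and CON and 0 to 1 for all AFB1-fed libraries and CON, in both cases SESN2 without AFB1_CUR replicate 1, and 0 for AFB1_CUR and AFB1. In none of these fits was an adjusted p of the 9 genes under 0.05. The correlated pairs, 2 in the report, were 6 with all 15 libraries, 0 without both immune-rich libraries, and 0 to 3 without single libraries, the 0 being without AFB1_CUR replicate 2. The causes were not tested.

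Of 828 log2 fold changes of single genes under other settings, 44 were of opposite sign, all of estimates that did not pass the test. With all 15 libraries, CCNG1 in AFB1_CUR over AFB1 was at -0.023 (-0.015 without the minimum) and PHLDA3 at 0.034 (0.0402 without the minimum, 0.24 with limma), and GADD45A was at 0.0076 with limma. With sample quality weights, AFB1_CUR over CON was at -0.0028 for CDKN1A, 0.0067 for CCNG1 and -0.31 for GADD45B, and GADD45B in AFB1-fed libraries was at -0.13. CCNG1 in AFB1_CUR over CON was at 0.026 with limma on log2(FPKM + 1), 0.0264 with a pseudocount of 0.1 and 0.026 with limma on all 15 libraries. Without both immune-rich libraries, PHLDA3 (0.044) and GADD45B (-0.0025) turned in AFB1 over CON, CDKN1A (-0.14) and GADD45B (-0.32) in AFB1_CUR over CON, and GADD45B (-0.16) in AFB1-fed libraries. Leaving out single libraries gave, for AFB1 over CON, -0.10 to 0.035 for PHLDA3 and -0.088 to 0.30 for GADD45B. For AFB1_CUR over AFB1 the ranges were -0.019 to 0.11 for CCNG1, -0.11 to 0.12 for SESN1, -0.10 to 0.38 for SESN2 and -0.44 to 0.083 for GADD45B. For AFB1_CUR over CON they were -0.21 to 0.52 for CDKN1A, -0.10 to 0.029 for CCNG1, -0.016 to 0.23 for GADD45A and -0.32 to 0.23 for GADD45B. For AFB1-fed libraries over CON they were -0.020 to 0.71 for CDKN1A, -0.10 to 0.0073 for CCNG1 and -0.12 to 0.27 for GADD45B.

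Of all tested genes, 232, 123, 214 and 186 met the conditions in AFB1 over CON, AFB1_CUR over AFB1, AFB1_CUR over CON and AFB1-fed over CON. With all 15 libraries the first 3 were 639, 525 and 131, without the minimum the 4 were 867, 707, 928 and 944, and with limma on log2(FPKM + 1) 105, 81, 80 and 64. With all 15 libraries and no minimum the 4 were 1778, 1597, 699 and 947, with all 15 and limma the last 2 were 52 and 63, and with sample quality weights the second was 336. Leaving out single libraries gave 204 to 454 (the highest without AFB1 replicate 5), 119 to 261 (193 without AFB1_CUR replicate 2, 261 without AFB1 replicate 2, 221 without AFB1 replicate 5), 115 to 305 (the lowest without AFB1_CUR replicate 2) and 117 to 289 (the lowest without AFB1_CUR replicate 2, the highest without AFB1 replicate 5). Without both immune-rich libraries the last 3 were 207, 115 and 119. DESeq2 gave 17, 3, 1 and 14 genes at an adjusted p under 0.05 where edgeR gave 0.

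Samples that share a replicate number were not shown to share an animal, litter or day, and their deviations from the group means correlated at -0.31 to 0.60 over 13 pairs (median 0.12). With the number as a replicate block, 0 of the 8 genes met the conditions in each comparison, and 228, 150, 282 and 224 of all tested genes did.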
